A study of Arabidopsis thaliana with 18 samples.

Results

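Transcript levels of the Arabidopsis thaliana mutant nlp2 were compared with those of wild type after nitrate had been given back to nitrogen-starved seedlings. The libraries were chosen by their sample titles, which name genotype, nitrate treatment and replicate number: 3 libraries of nlp2 and 3 of wild type, 6 of the 18 in the series. Wild type was the accession Col-4. The mutant was nlp2-2, a knock-out made by a T-DNA insertion in NLP2 (AT4G35270), so all mutant values come from 1 insertion line. All 6 libraries were made from whole seedlings grown in liquid medium, deprived of nitrogen for 3 days and sampled at 13 days of age, after a supply of 3 mM nitrate that the titles mark as 30, a time with no unit stated. The other 12 libraries are of the same genotypes after 3 days of starvation without nitrate, also at 13 days, and before starvation, at 10 days. In a bulk library of whole seedlings, fewer cells of a type and less RNA per cell cannot be told apart.

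Nitrate is both a nutrient and a signal for plants. Within minutes of its return, starved plants raise transcripts for nitrate uptake, for its reduction to ammonium, for the reducing power this takes and for the carbon skeletons that accept the nitrogen. NIN-like proteins (NLPs) are transcription factors of the RWP-RK family that bind nitrate-responsive promoter elements, and NLP7 is the member best known for driving this early response. The comparison asks how far the response in seedlings that lack normal NLP2 expression differs from that of wild type.

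Between 16426932 and 25545031 reads were counted in each of the 6 libraries, and 21347 genes passed the filter on low counts over the series. Levels are given as counts per 1e+06 reads (CPM) on library sizes scaled by TMM, and a gene is called at an edgeR adjusted p below 0.05. The fit behind these calls has no term for replicate number, so it does not use the pairing of the libraries. Values from a fit with replicate number as a block are printed where they change a call or a count. Genes named beyond the rule for named genes were chosen after their values had been seen. The first principal component of the 6 libraries held 40.9% of their variance and had replicate 1 of both genotypes at one end. The second held 26% and separated the genotypes. Replicate 1 was high in heat-shock transcripts in both genotypes. The 19 tested heat-shock genes summed to 27501, 2148 and 7043 CPM in wild-type replicates 1, 2 and 3, and to 20900, 2080 and 3576 CPM in those of nlp2. All 19 were highest in replicate 1 in each genotype, with a median ratio to the mean of the other two libraries of 6.32 in wild type and 7.38 in nlp2. Each result below is also given without replicate 1 of both genotypes where that changes a call.

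**Figure D1:**
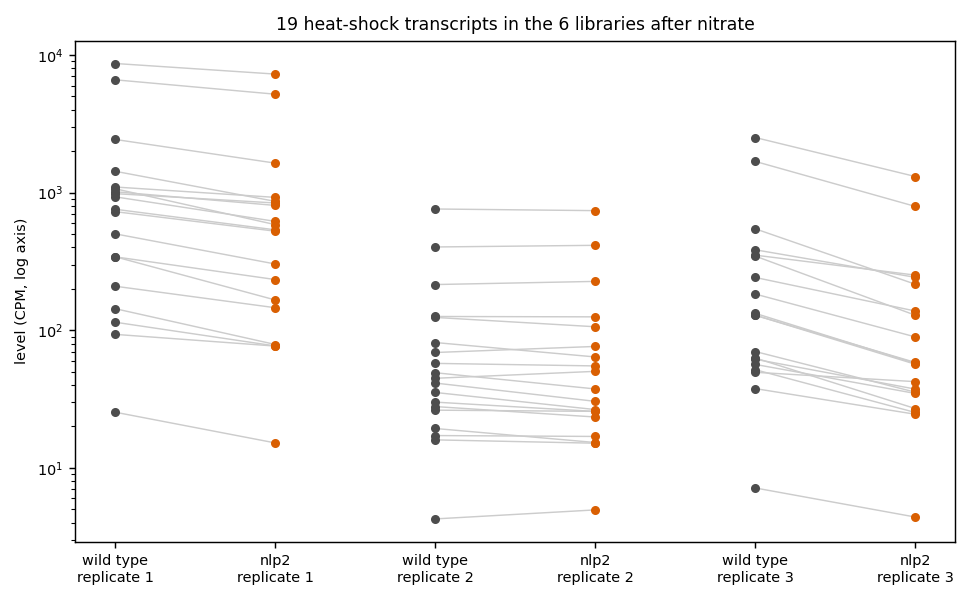
Levels of 19 heat-shock transcripts (CPM, log axis) in the 6 libraries after nitrate, with grey lines joining the same gene in wild type (grey points) and nlp2 (orange points) of 1 replicate number. Replicate 1 of both genotypes lies above the other libraries, and replicate 3 of wild type lies between.

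After nitrate, 168 of the 21347 genes tested (0.787%) were called between nlp2 and wild type. Of these, 78 (0.365%) were higher and 90 (0.422%) lower in nlp2. An unadjusted p below 0.05 was reached by 1558 of the 21347 genes, 606 higher and 952 lower. These numbers over all genes tested are the background for the counts of list members below. The genes that were lower were mostly well expressed and changed little: their median level over the 6 libraries was 37.4 CPM, their median log2 fold change was -0.75, and 28 of the 90 changed by at least 1 on the log2 scale. The genes that were higher had a median level of 9.13 CPM and a median log2 fold change of 1.24, and 52 of the 78 changed by at least 1. The groups did not overlap for 77 of the 78 higher and for all 90 lower genes, against 12.8% of all genes tested. The called genes were picked by a test on these same libraries, so this only describes them. With the replicate number as a block, 360 genes were called (1.69%), 147 higher (0.689%) and 213 lower (0.998%), and these included all 78 higher and 89 of the 90 lower genes. Without replicate 1 of both genotypes, 162 of 21471 genes were called (0.755%), 116 higher (0.54%) and 46 lower (0.214%), and these included 65 of the 78 higher but 33 of the 90 lower genes. With the block as well, 442 genes were called (2.06%) without replicate 1, and these included 77 of the 78 higher and 73 of the 90 lower genes. DESeq2 called 314 genes (1.47%) with all libraries. The count fell to 81 without nlp2 replicate 2, to 97 without nlp2 replicate 3 and to 83 without wild-type replicate 3. With each of the 6 libraries left out in turn, 37 of the 78 higher and 23 of the 90 lower genes stayed called every time.

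The targeted gene was low in every mutant library. NLP2 (chromosome 4, 16777264 to 16782054, reverse strand, TAIR10.1) was at 40.9, 47.6 and 50 CPM in wild type and at 8.49, 16.8 and 13.5 CPM in nlp2. All mutant libraries lay below all wild-type libraries, and the mean in nlp2 was 28% of that in wild type (log2 fold change -1.82 ± 0.26 SE, adjusted p = 0.0016). It was 19.7% in starved and 27.6% in untreated seedlings. Reads of NLP2 were thus still counted in this line termed a knock-out, and what transcript they come from was not tested. No other member of the family was called. NLP8 (0.34 ± 0.16, adjusted p = 0.689), NLP9 (0.28 ± 0.28) and NLP1 (0.07 ± 0.10) had values above 0. NLP3 was at -0.25 ± 0.13, NLP4 at -0.10 ± 0.20, NLP6 at -0.05 ± 0.11 and NLP5 at 0.00 ± 0.09. NLP7 was at 106, 106 and 111 CPM in wild type and at 97.2, 106 and 112 CPM in nlp2, and these groups overlap (-0.03 ± 0.09, adjusted p = 1). Of the 467 tested genes within 1 Mb of NLP2, 6 were called (1.28%), against 0.787% of all genes tested. They were NLP2 itself, AT4G32950, A/N-InvB, AT4G35660, AT4G36430 and BT5. Whether their place near the insertion matters for their levels was not tested.

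Of the genes that supply reducing power for nitrite reduction, 4 of 9 tested were lower in nlp2. This list holds some enzymes of the oxidative pentose phosphate pathway, which makes NADPH in plastids. It also holds the root-type ferredoxin and ferredoxin-NADP reductases that carry the electrons of NADPH to nitrite reductase. The share called lower over all genes tested was 0.422%. The median log2 fold change of the list was -0.38 against -0.01 over all genes tested. G6PD3, a plastid glucose-6-phosphate dehydrogenase, was at 607, 584 and 640 CPM in wild type and at 432, 478 and 458 CPM in nlp2 (log2 fold change -0.42 ± 0.08, adjusted p = 0.0171). FD3, a ferredoxin, was at 736, 609 and 660 CPM in wild type and at 553, 466 and 463 CPM in nlp2 (-0.44 ± 0.10, adjusted p = 0.0426). The mutant libraries lay below the wild-type libraries for both genes. The other called members were a pair of 6-phosphogluconate dehydrogenase genes, AT5G41670 (-0.35 ± 0.08, adjusted p = 0.0318) and AT1G64190 (-0.38 ± 0.07, adjusted p = 0.00994). With the replicate block, G6PD2 (-0.39, adjusted p = 0.0315, 0.0806 without the block) and the ferredoxin-NADP reductase gene RFNR2 (-0.40, adjusted p = 0.0497, 0.179 without it) were also called, 6 of the 9 in all. The block called 0.998% of all genes tested as lower. The third 6-phosphogluconate dehydrogenase gene, AT3G02360, was at 0.06, and RFNR1 at -0.23 (adjusted p = 0.527). Without replicate 1 the median of the list was -0.31, and 0 members were called by edgeR, with adjusted p-values of 0.128 for G6PD3, 0.0753 for FD3, 0.0673 for AT1G64190 and 0.235 for AT5G41670. With the block, 3 were called without replicate 1, G6PD3 (0.024), FD3 (0.00333) and AT1G64190 (0.0114), while AT5G41670 was not (0.0647). In that fit 0.862% of all genes tested were called lower. With all libraries, 7 of the 9 had an unadjusted p below 0.05 and DESeq2 called 5. Each of the 4 members called by edgeR was lost when some single library was left out.

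Some genes of organic acid and sugar phosphate metabolism were also called lower, and those named here were picked from the called genes. FUM2, the cytosolic fumarase that lets leaves store fumarate, had the largest fold change among the named genes of central metabolism. It was at 55.1, 69.2 and 64.9 CPM in wild type and at 15, 22 and 21.3 CPM in nlp2, with no overlap (-1.69 ± 0.19, adjusted p = 6.55e-05). PPC3, a phosphoenolpyruvate carboxylase that makes oxaloacetate, was at 299, 300 and 292 CPM in wild type and at 163, 168 and 168 CPM in nlp2 (-0.83 ± 0.15, adjusted p = 0.0102). PPCK2, a kinase that activates this enzyme, was at 20.5, 18.8 and 16.5 CPM against 8.18, 8.36 and 11 CPM (-1.02 ± 0.18, adjusted p = 0.0059). In both cases every mutant library was below every wild-type library, while the related genes PPC1 (0.06), PPC2 (-0.12) and PPCK1 (-0.18) were not called. This family was chosen after its values had been seen. The phosphoglycerate mutase gene PGM (AT1G78050) was at -0.62 ± 0.10, the plastid glyceraldehyde-3-phosphate dehydrogenase gene GAPCP-2 at -0.57 ± 0.10 and the transaldolase gene TRA2 at -0.36. TPPB, a trehalose-6-phosphate phosphatase, was at -0.89 ± 0.15, PGL4, a 6-phosphogluconolactonase, at -0.96, and PRS2, which makes the ribose precursor of nucleotides, at -0.69 ± 0.12. All of these were called. Without replicate 1 the calls of PPC3 (adjusted p = 0.0758), PPCK2 (0.0898), PRS2 (0.0611) and TRA2 (0.141) were lost, with log2 fold changes of -0.80, -0.86, -0.65 and -0.33. With the block all 4 were called there (adjusted p = 0.00396, 0.00262, 0.00802 and 0.0316). The calls of FUM2 (0.000566), PGM (0.0426), GAPCP-2 (0.0497), PGL4 (0.0499) and TPPB (0.0245) held.

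**Figure D2:**
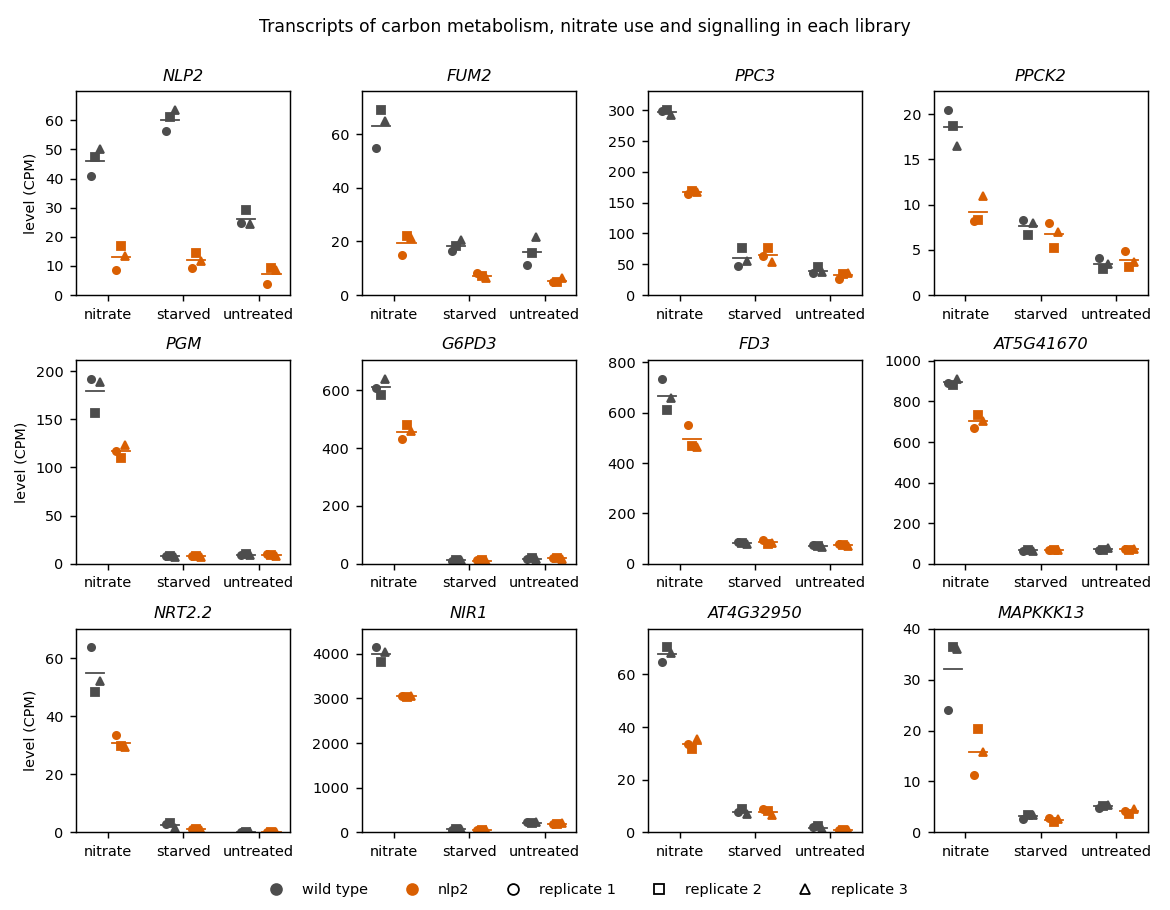
Levels (CPM) of 12 transcripts in each library after nitrate, in starved and in untreated seedlings, with wild type in grey, nlp2 in orange, a marker shape for each replicate number and a bar at each mean of 3 libraries. For all 12 the nlp2 libraries after nitrate lie below the wild-type libraries; 11 of them were called, and NIR1 had an adjusted p of 0.0917.

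Among the genes that reduce nitrate and assimilate ammonium, none passed the edgeR test without the block. NIA1 and NIA2, the nitrate reductases, were at 1766 ± 45.5 and 3407 ± 258 CPM in wild type and at 1791 ± 141 and 3456 ± 235 CPM in nlp2 (SD, n = 3), and neither was called (log2 fold changes 0.02 ± 0.09 and 0.02 ± 0.14, adjusted p = 1 for both). NIR1, the nitrite reductase, was at 4001 ± 167 CPM in wild type against 3048 ± 15.4 CPM in nlp2, with no overlap (-0.39 ± 0.10, adjusted p = 0.0917, and 0.0259 with the replicate block). UPM1, which makes the siroheme cofactor of nitrite reductase, was at -0.31 ± 0.09 (adjusted p = 0.164, and 0.0415 with the block). Of the 18 assimilation genes tested, 0 were called by edgeR without the block, with all libraries or without replicate 1. The block called 2 with all libraries, both lower, against 0.998% of all genes tested. At an unadjusted p below 0.05, 1 was higher and 5 were lower, DESeq2 called 2, both lower, and the median was -0.03.

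Of 21 nitrate transport genes tested, 1 was called, as lower, and the median was -0.14. The share called lower over all genes tested was 0.422%. At an unadjusted p below 0.05, 8 were lower and 0 higher, and DESeq2 and the block each called 3, all lower. Of all genes tested, the block called 0.998% and DESeq2 0.839% as lower. The groups did not overlap for 8, all lower (12.8% of all genes tested, in either direction). NRT2.2, a high-affinity transporter, was at 63.8, 48.5 and 52.3 CPM in wild type and at 33.6, 29.8 and 29.3 CPM in nlp2 (-0.83 ± 0.16, adjusted p = 0.0163). All mutant libraries were lower, but without replicate 1 the adjusted p was 0.0905 (log2 fold change -0.76), and 0.0152 with the block. Reads that fit NRT2.2 and its near-identical neighbour NRT2.1 equally well had been removed, so these counts are uncertain. NRT2.1 was at -0.10 ± 0.25. NRT3.1, the partner protein of NRT2.1 in the membrane, was at 638 ± 54.3 and 460 ± 23 CPM (-0.47 ± 0.11, adjusted p = 0.0585), and CLCB, a gene for vacuolar anion transport, at -0.30 (adjusted p = 0.11). With the block both were called (adjusted p = 0.00773 and 0.0405). NRT1.1, transporter and nitrate sensor, was at -0.21 ± 0.10 (adjusted p = 0.73). Of 15 genes for ammonium, urea and amino acid transport, 0 were called by edgeR, 3 higher and 2 lower had an unadjusted p below 0.05 and DESeq2 called 3 as higher. These were called with the block too, where 0.689% of all genes tested were called higher. With the block they were AMT1.1 (0.41, adjusted p = 0.0223), LHT1 (0.39, adjusted p = 0.0246) and AAP6 (0.36, adjusted p = 0.0293), transporters of ammonium and amino acids.

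Of 24 regulators of the nitrate response tested, 1 was called, as lower. Over all genes tested 0.422% were called lower. At an unadjusted p below 0.05, 7 were lower and 0 higher, DESeq2 called 3, all lower, and the block 2, both lower. Of all genes tested, the block called 0.998% and DESeq2 0.839% as lower. AFB3, an auxin receptor, was at 75, 78.6 and 78 CPM in wild type and at 61, 61.5 and 60.2 CPM in nlp2 (-0.34 ± 0.07, adjusted p = 0.024, and 0.103 without replicate 1, or 0.0237 there with the block). The median of the list was -0.10. LBD37 (-0.22 ± 0.12), LBD38 (-0.43 ± 0.11, adjusted p = 0.0821, and 0.0242 with the block) and LBD39 (-0.01 ± 0.13), repressors of nitrogen-responsive genes, were not called. HRS1, a repressor at the junction of nitrate and phosphate signals, was at -0.41 ± 0.15, and the related genes AT3G25790, AT1G68670 and AT1G25550 were at -1.2 ± 0.36 (adjusted p = 0.204), -0.11 and 0.05. BT2 was at 0.08 ± 0.13 and its relative BT1, with the same protein domains, at -0.89 ± 0.22 (adjusted p = 0.0861, and 0.0246 without replicate 1). BT5, of the same family but not on the list, was called (-0.84, adjusted p = 0.0169). The transcription factor genes TGA1 (-0.26) and TGA4 (-0.14) and the kinase genes CIPK23 (-0.14) and CIPK3 (0.16) were not called either, with adjusted p-values between 0.567 and 0.948. In the list on systemic nitrogen demand and glutaredoxins, 1 of 14 members was called. It was AT4G32950, a protein phosphatase 2C gene, at 64.8, 70.3 and 68.3 CPM in wild type and at 33.7, 31.7 and 35.3 CPM in nlp2 (-1.01 ± 0.12, adjusted p = 0.000156, and 0.00274 without replicate 1). AT4G32950 and BT5 both lie within 1 Mb of NLP2.

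Other genes lower in nlp2 encode signalling proteins and enzymes of hormone metabolism. MAPKKK13 was at 24, 36.4 and 36.1 CPM in wild type and at 11.2, 20.3 and 15.9 CPM in nlp2 (-1.02 ± 0.18, adjusted p = 0.00723), and MAPKKK14 was at -0.75 (adjusted p = 0.0302). Both held without replicate 1 (adjusted p = 0.00228 and 0.0407), and the other 11 MAPKKK genes tested, a family chosen after its values had been seen, lay between -0.59 and 0.77 and were not called. CYP72C1 (-0.81 ± 0.11, adjusted p = 0.000689) and BAT1 (-0.75 ± 0.10, adjusted p = 0.000517) inactivate brassinosteroids, and CYP90D1 (-0.57, adjusted p = 0.0194) takes part in their synthesis. TAR2 (-0.71, adjusted p = 0.0037) belongs to auxin synthesis. ARR3, a response regulator of cytokinin signalling, was the only 1 of 16 cytokinin genes that was called (-0.64 ± 0.11, adjusted p = 0.007). Over all genes tested 0.422% were called lower. CLE2, which encodes a signalling peptide, was at 4.67, 7.03 and 4.97 CPM in wild type and at 2.66, 2.37 and 2.17 CPM in nlp2 (-1.21 ± 0.27, adjusted p = 0.0397), and the homeobox gene WOX2 was at -1.28 ± 0.22 (adjusted p = 0.00593). Without replicate 1 the values of ARR3 (-0.59, adjusted p = 0.0643), CLE2 (-1.38, 0.0753) and BT5 (-0.78, 0.0578) did not pass, and with the block they did (adjusted p = 0.0206, 0.00916 and 0.00235).

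AIR1, a gene first found as induced by auxin in root cultures, was at 797, 429 and 473 CPM in wild type and at 196, 235 and 217 CPM in nlp2 (-1.39 ± 0.23, adjusted p = 0.00557). Its wild-type replicate 1 stood above the others, and without replicate 1 the call was lost (-0.98, adjusted p = 0.0603, and 0.0111 with the block). HMT3, a homocysteine methyltransferase (-1.23 ± 0.23), PEN1, a triterpene synthase (-1.19 ± 0.24), and CLH1, a chlorophyllase (-1.05 ± 0.22), were also lower. So were GLYI4, a glyoxalase (-1.04 ± 0.22), and PGIP2, which inhibits pectin-degrading enzymes (-1.02 ± 0.22). They complete the 12 that decreased most among genes with an annotated symbol, no overlap and a mean of at least 5 CPM in either genotype. The carbonic anhydrase genes CA1 (-0.67, adjusted p = 0.0194) and CA2 (-0.66, adjusted p = 0.0259) were lower. NAS1, which makes the metal chelator nicotianamine, was also lower (-0.61 ± 0.11, adjusted p = 0.00783), 1 of 15 iron and zinc genes called. With the block 2 of these 15 were called, both lower. Over all genes tested 0.422% were called lower without the block and 0.998% with it. PEN1 (adjusted p = 0.172), CLH1 (0.268), GLYI4 (0.168), CA1 (0.123) and CA2 (0.128) were not called without replicate 1, while HMT3, PGIP2 and NAS1 were. With the block CA1 was called there (adjusted p = 0.0237), and PEN1 (0.16), CLH1 (0.0721), GLYI4 (0.151) and CA2 (0.0932) were not. HMT3, PGIP2 and NAS1 were each lost when some single library was left out (edgeR adjusted p up to 0.071, 0.176 and 0.0553). AT1G66860, a glutamine amidotransferase-like gene, was at 12.9, 3.68 and 3.43 CPM in wild type and at 0.62, 0.474 and 0.571 CPM in nlp2 (-3.60 ± 0.68, adjusted p = 0.0163, and 0.0753 without replicate 1). AT1G33930, annotated as a nucleoside triphosphate hydrolase, had 53 reads over the wild-type libraries and 1 over those of nlp2, 45.7 times as many per sequenced read (95% interval 7.85 to 1838, which covers counting error only).

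The NLP-bound element is shown for a pair of these genes, because NLP proteins act through it. It was searched on both strands as CTT and AAG with 10 bases between them, in the 250 bases before each annotated gene start. It was present in 9 of the 90 promoters of genes that were lower (10%), in 11 of the 78 of genes that were higher (14.1%) and in 7.62% of the promoters of 21222 tested genes. None of the 9 promoters of the reductant list held it. The promoter sequences are those of the RefSeq assembly TAIR10.1, not of the lines sampled, written 5′ to 3′ on the gene's strand with the match in capitals.
AIR1 promoter, chr4:7438865-7439114, forward strand: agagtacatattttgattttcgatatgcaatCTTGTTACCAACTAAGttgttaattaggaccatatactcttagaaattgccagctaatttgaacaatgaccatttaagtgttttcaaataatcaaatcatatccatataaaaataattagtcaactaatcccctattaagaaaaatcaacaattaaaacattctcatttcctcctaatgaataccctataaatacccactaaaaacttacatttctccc
MAPKKK14 promoter, chr2:12821319-12821568, forward strand: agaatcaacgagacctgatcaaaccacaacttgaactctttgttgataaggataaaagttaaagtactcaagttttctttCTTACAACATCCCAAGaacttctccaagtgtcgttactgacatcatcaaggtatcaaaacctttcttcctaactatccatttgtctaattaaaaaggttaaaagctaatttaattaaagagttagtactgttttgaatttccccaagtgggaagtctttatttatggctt
Each promoter has 1 match, which ends 204 bases before the gene start in AIR1 and 155 in MAPKKK14. A match shows only that the letters are there.

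Some transcripts that were higher in nlp2 were nearly absent from wild type. AT3G18535, annotated as a tubulin-tyrosine ligase gene, was at 0.085, 0 and 0 CPM in wild type and at 16.4, 15.7 and 16.9 CPM in nlp2. Summed over libraries, nlp2 had 925 reads and wild type 2, or 536 times as many per sequenced read (95% interval 148 to 4436, counting error only). MRD1 (chromosome 1, 19963047 to 19964712, reverse strand), named for its low level in a mutant that overaccumulates methionine, was at 1.53, 0.766 and 1.07 CPM in wild type and at 39.9, 37.1 and 40.7 CPM in nlp2 (5.11 ± 0.20, adjusted p = 2.97e-11). HEI10, which overlaps it on the other strand and encodes a protein of meiotic recombination, was at 3.06, 2.78 and 1.53 CPM against 17.1, 12.4 and 14.4 CPM (2.56 ± 0.23, adjusted p = 5.5e-06). How strand was used in counting is not stated by the labels or headers, so reads of these overlapping genes cannot be told apart. AT5G10760, an aspartyl protease gene, was at 2.38, 2.97 and 3.57 CPM in wild type and at 25.9, 28.6 and 36.8 CPM in nlp2 (3.36 ± 0.22, adjusted p = 7.26e-08). In starved and untreated nlp2, MRD1 was at 38.9 and 40 CPM and AT3G18535 at 12.4 and 10.5 CPM, against 39.2 and 16.3 CPM after nitrate. AT5G35935, an uncharacterized gene, was higher (2.07 ± 0.21), and its neighbour AT5G35940, a lectin gene, was lower (-1.94, adjusted p = 0.0397, 0.0825 with the block and 0.199 without replicate 1).

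Among the 78 genes that were higher were members of families of cell-surface receptors. Plants sense microbes at the cell surface with receptor-like proteins (RLPs), which lack a kinase and signal with the kinase SOBIR1, with cysteine-rich receptor kinases (CRKs) and with wall-associated kinases (WAKs). These families were chosen after the called genes had been seen, so their counts are a description. Of 45 RLP genes tested, 6 were called, all higher, and the median log2 fold change was 0.37. Over all genes tested, 0.365% were called higher and the median was -0.01. With the block 8 RLP genes were called, all higher, against 0.689% of all genes tested. RLP38 was at 1.66, 2.06 and 2.83 CPM in wild type and at 12.1, 18 and 26.2 CPM in nlp2 (3.11 ± 0.27, adjusted p = 5.25e-06). RLP37, its neighbour, was at 4.59, 6.13 and 5.94 CPM against 11.6, 21 and 24 CPM (1.77 ± 0.22, adjusted p = 0.000255). RLP23, a receptor for a microbial peptide, was at 3.65, 3.11 and 5.24 CPM against 5.7, 16 and 16.2 CPM (1.67 ± 0.32, adjusted p = 0.0163). The groups did not overlap for these 3 genes, and mutant replicate 1 was the lowest mutant library in each. The others were RLP41 (3.14), RLP42, a receptor for fungal pectin-degrading enzymes (1.31), and RLP46 (1.05). SOBIR1 itself was at 61, 65.6 and 63.7 CPM in wild type and at 88.7, 112 and 140 CPM in nlp2 (0.84 ± 0.16, adjusted p = 0.0114).

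Of 37 CRK genes tested, 4 were called, all higher (median 0.23), against 0.365% of all genes tested. The 37 were collected by symbol alone. CRK3 occurs more than once among them (0.33 and 0.14), so kinases of another family may be included in the 37 and their median. With the block 6 of the 37 were called higher and 1 lower, against 0.689% and 0.998% of all genes tested. CRK6 was at 1.44, 1.2 and 1.53 CPM in wild type and at 8.74, 9.43 and 11.9 CPM in nlp2 (2.84 ± 0.20, adjusted p = 2.05e-07). CRK7, next to it on chromosome 4, was at 0.722, 0.287 and 0.696 CPM against 5.76, 6.42 and 7.76 CPM (3.52 ± 0.31, adjusted p = 5.25e-06). CRK14 (1.22) and CRK15 (1.16), another adjacent pair, were also called. Of 13 WAK genes tested, 3 were called and all 13 lay above 0 (median 0.38). WAK1, which binds pectin fragments, was at 47, 49.9 and 52.6 CPM in wild type and at 71.7, 104 and 133 CPM in nlp2 (1.05 ± 0.19, adjusted p = 0.0122). WAK3 (2.5) and WAK2 (0.61) lie beside it. Members of these families resemble their neighbours, and reads that fit more than 1 copy equally well had been removed, so the division of reads between neighbours is uncertain. All 13 called genes of the 3 families were also called without replicate 1, where 6 RLP, 5 CRK and 3 WAK genes were called. In that fit 0.54% of all genes tested were called higher. RLP23 (adjusted p up to 0.105), RLP46, CRK14, CRK15, SOBIR1 and the 3 WAK genes were each lost when some single library was left out.

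**Figure D3:**
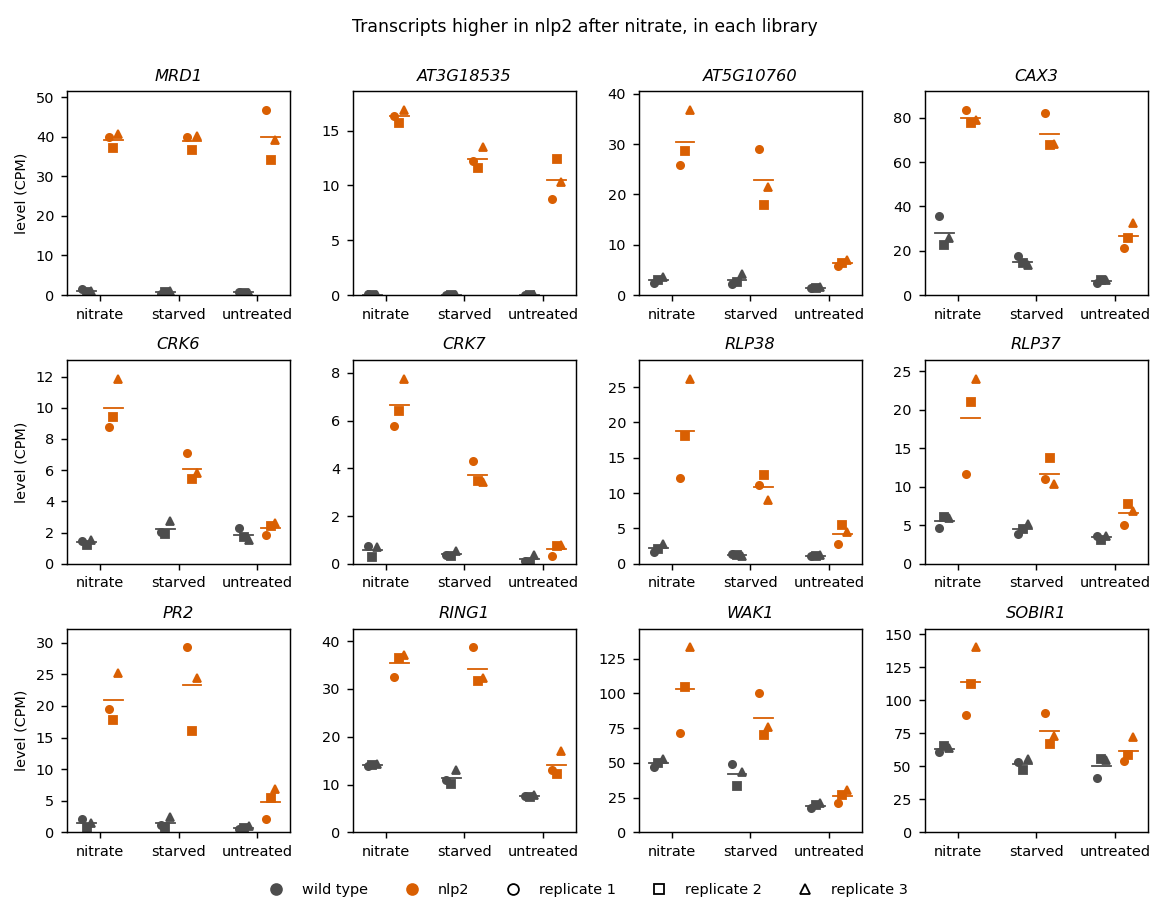
Levels (CPM) of 12 transcripts that were higher in nlp2 after nitrate, in each library of the 3 conditions, drawn as in the plot of lower transcripts. No nlp2 library after nitrate overlaps the wild-type libraries, and MRD1 and AT3G18535 are also above wild type in starved and untreated nlp2.

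The W box, the site of the WRKY factors that act in immunity, is shown for 4 of these receptors that hold it. It was searched on both strands as TTGACC or TTGACT in the same 250 bases. It was present in 36 of the 78 promoters of genes that were higher (46.2%), in 24 of the 90 of genes that were lower (26.7%) and in 28.5% of those of all tested genes. The TGA factor site, TGACG on either strand, was present in 25.6%, 10% and 19.3% of the same promoters. Capitals mark the W boxes, which read AGTCAA or GGTCAA where they lie on the other strand.
CRK6 promoter, chr4:12121119-12121368, forward strand: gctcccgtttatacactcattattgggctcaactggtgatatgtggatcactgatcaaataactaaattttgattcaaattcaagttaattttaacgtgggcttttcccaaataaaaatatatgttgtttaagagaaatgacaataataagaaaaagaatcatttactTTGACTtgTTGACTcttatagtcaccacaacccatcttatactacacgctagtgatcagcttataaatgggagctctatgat
CRK14 promoter, chr4:12156882-12157131, reverse strand: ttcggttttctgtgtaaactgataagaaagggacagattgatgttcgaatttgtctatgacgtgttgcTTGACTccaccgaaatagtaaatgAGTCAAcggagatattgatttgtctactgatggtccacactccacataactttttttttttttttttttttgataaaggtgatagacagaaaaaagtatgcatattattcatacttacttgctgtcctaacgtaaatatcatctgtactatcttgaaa
RLP23 promoter, chr2:13862615-13862864, reverse strand: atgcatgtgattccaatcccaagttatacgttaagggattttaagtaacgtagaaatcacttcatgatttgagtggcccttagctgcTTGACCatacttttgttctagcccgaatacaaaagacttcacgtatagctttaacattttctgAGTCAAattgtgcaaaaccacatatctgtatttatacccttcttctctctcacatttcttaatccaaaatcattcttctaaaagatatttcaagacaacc
RLP38 promoter, chr3:8229620-8229869, reverse strand: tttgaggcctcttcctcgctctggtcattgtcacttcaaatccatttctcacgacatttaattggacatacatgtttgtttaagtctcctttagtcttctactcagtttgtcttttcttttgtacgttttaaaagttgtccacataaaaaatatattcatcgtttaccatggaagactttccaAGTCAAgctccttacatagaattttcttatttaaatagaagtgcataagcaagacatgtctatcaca
CRK6, CRK14 and RLP23 have 2 W boxes each and RLP38 has 1. Among the called genes of the 3 families, CRK7, RLP41, RLP42, RLP46, WAK1 and WAK3 had no W box in these 250 bases. The shares describe which promoters hold the letters and were not tested.

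Defence genes further inside the cell were partly higher. Of 17 genes of the salicylic acid defence list tested, 3 were called, all higher, and the median was 0.31. Over all genes tested 0.365% were called higher. PR2, a secreted glucanase and marker of this pathway, was at 2.04, 0.718 and 1.53 CPM in wild type and at 19.6, 17.7 and 25.3 CPM in nlp2 (3.84 ± 0.42, adjusted p = 0.000139). EDS1, a central regulator of immunity, was at 32.8, 37.1 and 37.7 CPM against 47.5, 53.3 and 58.3 CPM (0.56 ± 0.09, adjusted p = 0.00321). CBP60G, a factor that raises salicylic acid synthesis, was at 3.14, 4.93 and 3.20 CPM against 4.58, 10.2 and 11.1 CPM (1.22 ± 0.28, adjusted p = 0.0459), and its groups overlap. WRKY70 was at 0.85 (adjusted p = 0.234) and was called with the block (adjusted p = 0.0166). ICS1, the enzyme of salicylic acid synthesis, was at 0.35, PAD4 at 0.15, NPR1, the salicylic acid receptor, at 0.14 and PR5 at 0.15, and these were not called. Without replicate 1, 4 members were called, the fourth being SARD1, a factor that acts beside CBP60G (1.1, adjusted p = 0.234, and 0.0349 without replicate 1). In that fit 0.54% of all genes tested were called higher. Other higher genes with known parts in immunity were the chitinase gene CHI (AT2G43570, 1.53 ± 0.23), the ubiquitin ligase gene RING1 (1.33, adjusted p = 5.5e-06), ADR1, a helper of intracellular immune receptors (0.56), and HR4, a homolog of RPW8 (0.71). AT1G35710, a leucine-rich repeat kinase gene, was at 2.85, 5.26 and 6.68 CPM in wild type and at 15.4, 33 and 44.1 CPM in nlp2 (2.65 ± 0.38, adjusted p = 0.00227).

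Further genes that were higher include CAX3, CML41, CNGC3 and 3 of the 10 NF-YA genes, against 0.365% of all genes tested. CAX3, a vacuolar calcium/proton exchanger, was at 35.7, 22.6 and 25.6 CPM in wild type and at 83.5, 77.7 and 78.9 CPM in nlp2 (1.51 ± 0.16, adjusted p = 4.5e-05). The other 7 CAX genes tested lay between -0.25 and 0.18 and were not called. CML41, a calmodulin-like protein gene, was at 2.93, 1.44 and 1.95 CPM against 7.06, 10.4 and 10.5 CPM (2.14 ± 0.24, adjusted p = 6.02e-05), and the ion channel gene CNGC3 was at 0.62 (adjusted p = 0.0426, and 0.0651 without replicate 1, or 0.00609 there with the block). NF-YA proteins bind CCAAT boxes, and the called members were NF-YA2 (0.33 ± 0.07, adjusted p = 0.0276), NF-YA6 (0.44 ± 0.10, adjusted p = 0.0455) and NF-YA10 (0.48 ± 0.11, adjusted p = 0.0403). None of the 3 was called without replicate 1 (adjusted p = 0.0636, 0.0848 and 0.195), and all 3 were with the block there (0.00976, 0.0208 and 0.0319). The CAX and NF-YA families were also chosen after their values had been seen. NAC036, a NAC transcription factor, was at 1.82 ± 0.22 (adjusted p = 0.000206).

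**Figure D4:**
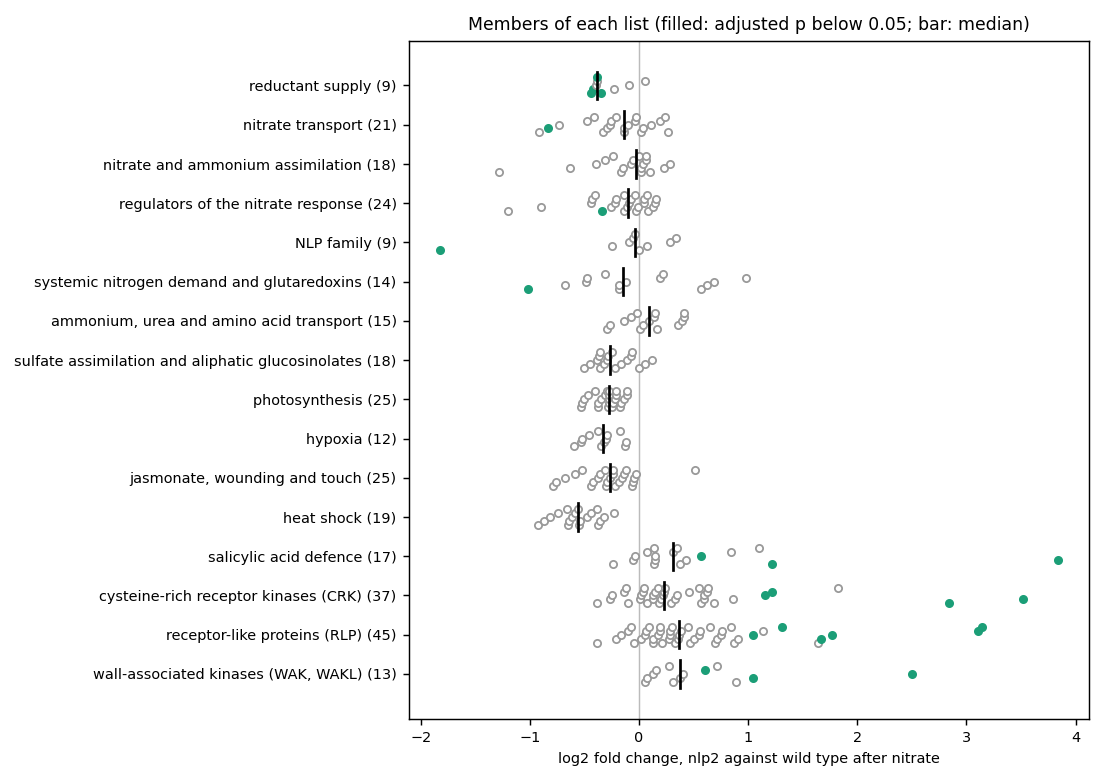
Log2 fold changes of nlp2 against wild type after nitrate for the tested members of 16 gene lists and families, with the number tested in brackets, filled points for genes with an edgeR adjusted p below 0.05 and a bar at the median. The called members of the reductant, nitrate transport and regulator lists lie below 0 and those of the salicylic acid, RLP, CRK and WAK groups above 0.

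In several other lists most members lay on the same side of 0 without passing the test. All 25 photosynthesis genes were below 0, between -0.54 and -0.11, with a median of -0.27, and 19 had no overlap between the groups, against 12.8% of all genes tested. By edgeR 0 were called, 12 had an unadjusted p below 0.05, DESeq2 called 0 and the block 2, both lower, against 0.998% of all genes tested. Of all 21347 genes tested, 952 were lower and 606 higher at an unadjusted p below 0.05. Their sum was 32511 to 34965 CPM in wild type against 24919 to 29150 CPM in nlp2, and their median was -0.27 in starved and -0.15 in untreated seedlings. Of 25 genes on jasmonate, wounding and touch, 24 were below 0 (median -0.26). None was called by edgeR, 5 lower and 1 higher had an unadjusted p below 0.05, and DESeq2 called 1, as lower. AOS, an enzyme of jasmonate synthesis, was at -0.76 (adjusted p = 0.132), and TCH3, a touch-induced calmodulin-like gene, was the 1 member above 0 (0.51). All 12 hypoxia genes were below 0 (median -0.33), with 0 called by edgeR and DESeq2 and 1 at an unadjusted p below 0.05. All 19 heat-shock genes were below 0 (median -0.56), with 0 called by either tool and 0 at an unadjusted p below 0.05. Replicates of 1 genotype differed by more than the genotypes did. Without replicate 1 the median was -0.70. The median log2 ratio of nlp2 to wild type was -0.55, -0.06 and -0.98 in replicates 1, 2 and 3. Leaving out replicate 1 thus did not even out the heat-shock transcripts between genotypes in replicate 3. HSP101 was at 2434, 124 and 546 CPM in wild type and at 1638, 106 and 216 CPM in nlp2 (-0.66 ± 0.99). Of 18 genes for sulfate assimilation and aliphatic glucosinolates 16 were below 0 (median -0.27). By edgeR 0 were called, 6, all lower, had an unadjusted p below 0.05, and DESeq2 and the block each called 1, as lower. Of all genes tested, the block called 0.998% and DESeq2 0.839% as lower. Genes of the circadian clock (15 tested, median -0.08), flavonoid synthesis (17, -0.09), phosphate starvation (13, -0.10), the cell cycle (14, 0.09) and ribosome biogenesis (12, 0.07) had 0 called by edgeR and by DESeq2. At an unadjusted p below 0.05 they had 2, 1, 3, 2 and 0 members.

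The same genotypes were compared in starved and in untreated seedlings, with other libraries. There, 78 (0.365%) and 77 (0.361%) of the genes tested were called. Of the 78 genes higher after nitrate, 45 (57.7%) were also called higher in starved nlp2, which is 75% of the 60 genes higher there, and 28 (35.9%) in untreated nlp2, 48.3% of the 58 there. All 78 had a value above 0 in starved seedlings, where their median was 1.07. Of the 90 genes lower after nitrate, 12 (13.3%) were also called lower in starved nlp2, 66.7% of the 18 there, and 9 (10%) in untreated nlp2, 47.4% of the 19 there. Their median was -0.28 in starved seedlings, 72 were below 0 there, and 43 lay within 0.25 of 0. Lower in all 3 conditions were 5 genes, NLP2, FUM2 and NAS1 among them. G6PD3 was at 11.6 and 10.8 CPM in starved wild type and nlp2, PGM at 7.82 and 8.04, and PPC3 at 59.8 and 64.3. These levels are a small part of those after nitrate, and the genotypes differed there by less than their error (log2 fold changes -0.10, 0.04 and 0.11, adjusted p = 1).

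**Figure D5:**
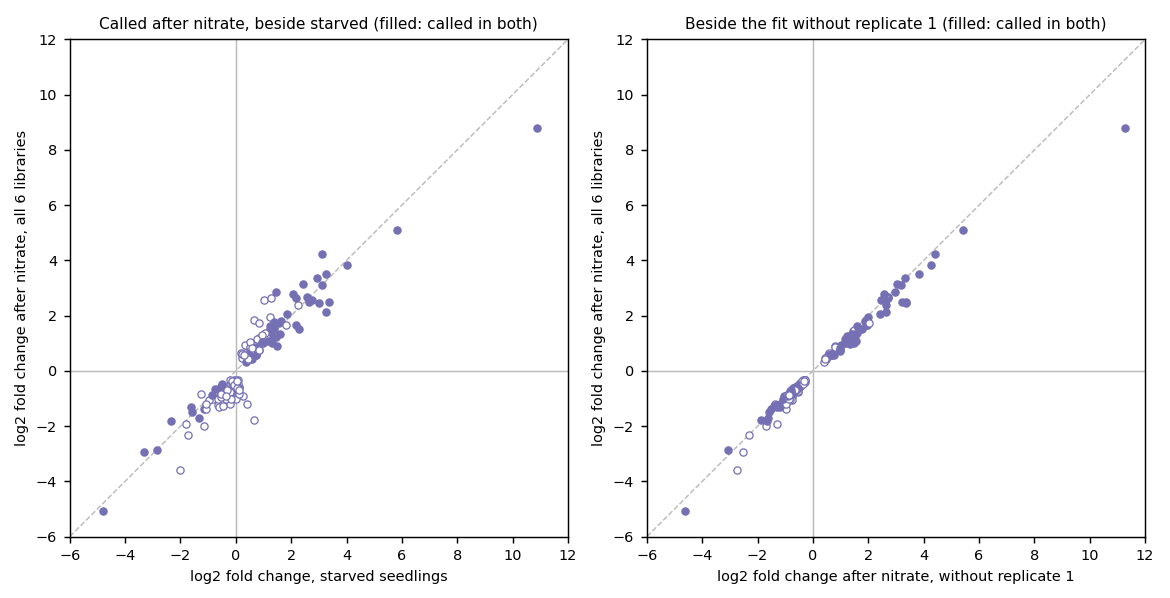
Log2 fold changes of the 168 called genes after nitrate (vertical axis), beside those of the same genes in starved seedlings (left) and in the fit without replicate 1 of both genotypes (right), with filled points for genes also called there and a dashed line of equal values. Genes higher in nlp2 lie on the positive side in starved seedlings too, while many of those lower lie near 0 there, and fewer of the lower than of the higher genes are called again without replicate 1.

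Whether the difference between genotypes depended on the condition was tested as an interaction in the same edgeR fit. For nitrate against starved seedlings 0 of 21347 genes were called (0%) and 313 had an unadjusted p below 0.05. For nlp2 against wild type after nitrate that number was 1558. Evenly spread p-values would give more than 313 genes, so 0 called does not show that the difference was the same. DESeq2 called 2, both lower. By edgeR, no gene can be called lower in nlp2 only after nitrate. Among the genes called after nitrate the smallest adjusted p-values of this interaction were those of AT3G44800 (0.0613), AT4G32950 (0.354) and CRK6 (0.983), and for PPC3 the difference was -0.94 (unadjusted p = 0.000441, adjusted p = 1). For nitrate against untreated seedlings 2 genes were called (0.00937%), CRK6 and NF-YA2, 702 had an unadjusted p below 0.05 and DESeq2 called 10. Evenly spread p-values would give more than 702 genes as well. CRK6 was at 2.26, 1.68 and 1.5 CPM in untreated wild type and at 1.81, 2.39 and 2.58 CPM in untreated nlp2, where the groups overlap (0.31), against 2.84 after nitrate (adjusted p of the difference = 0.00284). NF-YA2 was at 57.9, 52.5 and 53.8 CPM in untreated wild type and at 114, 108 and 110 CPM in untreated nlp2, so its difference was larger there (1.01) than after nitrate (0.33, adjusted p of the difference = 0.025). Untreated seedlings were also 3 days younger. Neither gene was called in this interaction without replicate 1.

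Leaving out replicate 1 of both genotypes changed the genes called more than their number. Of the 168 genes, 65 higher and 33 lower were called again. The 6 genes with a symbol and the smallest p among those called only without replicate 1 included GSTF2, GSTF6 and GSTF7, glutathione transferases, which conjugate toxic compounds. GSTF11, of the same family, was instead called lower with all libraries (-0.86 ± 0.19, adjusted p = 0.0384, and 0.0915 without replicate 1). GSTF7 was at 81.1, 31 and 32.4 CPM in wild type and at 66.8, 106 and 95.2 CPM in nlp2, so that wild-type replicate 1 alone was as high as the mutant. Its log2 fold change was 0.89 ± 0.29 with all libraries (adjusted p = 0.27) and 1.67 without replicate 1 (adjusted p = 2.61e-05). GSTF6 went in the same way from 0.91 to 1.54 (adjusted p = 0.00149) and GSTF2 from 0.73 to 1.39 (adjusted p = 0.00136). The sulfotransferase gene SOT12 went from 0.41 to 1.05 (adjusted p = 0.0095), the protein kinase gene MEKK3 from 0.39 to 0.56 (also called with the block, adjusted p = 0.0392) and the receptor kinase gene IOS1 from 0.52 to 0.66. The part of the heat-shock state of replicate 1 in these values was not tested.

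Markers of root and shoot tissues, followed because a change in the makeup of the seedlings would move many genes together, did not pass the test. Of 14 root markers tested, 0 were called by edgeR or DESeq2 and 0 had an unadjusted p below 0.05. Below 0 were 11 and above it 3 (median log2 fold change -0.10). They summed to 415, 371 and 380 CPM in wild-type replicates 1, 2 and 3, and to 378, 335 and 368 CPM in those of nlp2. Of 14 shoot markers tested, 0 were called by either tool and 2 had an unadjusted p below 0.05, both higher, and they summed to 678 to 734 CPM in wild type against 718 to 805 CPM in nlp2 (median 0.08). Of the shoot markers 8 were above and 6 below 0. All 3 companion cell markers of the vein were below 0 (median -0.05), with 0 called and 0 at an unadjusted p below 0.05. The 8 seed storage genes did not pass the filter on low counts.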

How the data were processed

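RNA-seq libraries of whole seedlings were read as gene counts. The authors deposited, for each library, a table of whole-number counts of reads per gene; per the file headers these were made with sam2pkm after removing reads whose best hits scored equally (1.95% to 1.97% of mapped reads in the 6 nitrate libraries). Alignment used Bowtie2 and the TAIR10 build, per the submitters' processing notes, with annotation version and use of strand not given in the sources used here. All 18 libraries entered one edgeR 4.0.16 quasi-likelihood fit (limma 3.58.1, R 4.3.3) with 6 groups of 3, TMM scaling, filterByExpr (count minimum 10, total minimum 15; 21347 genes) and 12 residual degrees of freedom; p-values were adjusted by Benjamini-Hochberg over all genes tested. The design calls the libraries biological replicates; nothing further says how they were separated, so p-values measure the spread between these samples. The scripts were tested on simulated data.

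Replicate numbers paired the libraries: deviations of same-numbered nitrate libraries of both genotypes correlated at 0.487, 0.438 and 0.201, against at most 0.113 across numbers, and the planting month matched the replicate number in the 13 of 18 libraries with a date, 4 of them nitrate libraries. The blocked value is printed where it changes the call of a named gene or the number called in a list. Alternatives were DESeq2 1.42.0, its size factors, no filter, only the 6 nitrate libraries, the block, a fold threshold and leaving out replicates. Promoters are the 250 bases before each RefSeq gene start in TAIR10.1, searched with Python 3.11.15; figures used matplotlib 3.10.9. The rule for named genes takes all NLP genes, 12 called genes in each direction (those that changed most among genes with a symbol, at least 5 CPM and no overlap), up to 4 called members of each list, preset nitrate genes, the genes with the smallest interaction p-values or called only without replicate 1, and 5 heat-shock genes; the 5 called genes without a symbol that changed most at 5 CPM or more may be named too. The limit of 5 CPM applies to the mean of either genotype. The members and lists were chosen with earlier results of these data known, and gene families and further names after values had been seen. The number of unused columns of per-sample values was 0.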

Additional observations from a re-analysis of the deposited data

Results flagged for a closer look

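The difference between nlp2 and wild type depended on the condition for CRK6 and NF-YA2, by the edgeR test of the interaction of genotype with nitrate against untreated seedlings. For CRK6 the log2 fold change after nitrate exceeded that in untreated seedlings by 2.53 ± 0.30 (SE, adjusted p = 0.00284), with values of 2.84 after nitrate, 1.45 in starved and 0.31 in untreated seedlings. For NF-YA2 the difference was -0.68 ± 0.10 (adjusted p = 0.025), with values of 0.33, 0.38 and 1.01. Neither passed this test without replicate 1 of both genotypes.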

How the results depend on the processing

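Beside the 168 genes called after nitrate, scaling with DESeq2's size factors (172 genes), no filter (158) and leaving out replicate 1 of both genotypes (162) gave counts within 1.5 times. DESeq2 called 314, the replicate block 360, the 6 nitrate libraries alone 104, these with the block 631, the libraries without replicate 1 with the block 442, and a fold threshold of 1 on the log2 scale left 80. Leaving out 1 library in turn gave 81 to 201 genes. For starved seedlings (78 genes) the counts were 152 with DESeq2, 137 with the block and 26 without replicate 1, and for untreated seedlings (77 genes) 157, 143 and 36. The interaction of nitrate with starved seedlings (0 genes) gave 2 with DESeq2, and that with untreated seedlings (2 genes) gave 10 with DESeq2, 11 with the block, 1 with no filter and 0 without replicate 1. The cause of these shifts was not tested. With all libraries, the block changed no call of a named gene other than those printed beside the results.

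Values that changed sign all belong to genes that were not called. NLP5 was at 0.010 with no filter, 0.0087 with the 6 libraries and 0.014 with these and the block; LBD39 was at 0.0076, 0.0060 and 0.0032 in the same order; and NLP7 was at 0.0201 without replicate 1 and 0.0203 there with the block. With 1 library left out, the log2 fold change ranged for NLP4 from -0.38 to 0.23, for NLP5 from -0.0684 to 0.0797, for NLP6 from -0.14 to 0.0206, for NLP7 from -0.0816 to 0.0189, for NIA1 from -0.0238 to 0.0831, for NIA2 from -0.0409 to 0.0556, for AT1G25550 from -0.0501 to 0.14, for LBD39 from -0.11 to 0.0728, for HSP101 from -2.69 to 0.96, for HSP90.1 from -2.26 to 1.03, for HSP17.6A from -3.08 to 1.46, for HSP18.2 from -0.77 to 0.27 and for HSFA2 from -2.88 to 1.33. With 3 libraries a group and between 16426932 and 25545031 reads each, a difference in the heat-shock genes could not be resolved, because their replicates differ more than the genotypes do.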
